A study of Homo sapiens with 9 samples.

Results

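The genes described here are 10 genes of the bone morphogenetic protein (BMP) and transforming growth factor beta (TGF-beta) response: ID1, ID2, ID3, ID4, SMAD6, SMAD7, SKIL, BAMBI, BMP4 and BMP7. They were chosen by name, with earlier results of these data known. They were matched by symbol to the Ensembl identifiers of the count tables, and all 10 were found among 60683 gene identifiers. RNA was measured in HEK293T cells, a human embryonic kidney line transformed with adenovirus DNA and carrying the SV40 large T antigen. Parental cells without a reporter were set beside clone 15 and clone 37, with 3 replicate libraries in each of the 3 groups. Both clones carried a pair of luciferase reporters placed in the genome by the piggyBac transposon. In one reporter 60 CAG units preceded a Myc tag and NanoLuc, and the other, Myc-tagged firefly luciferase, had 0 units. Clone 15 was picked for low and clone 37 for high expression of both reporters. All cells grew in DMEM with fetal bovine serum and penicillin/streptomycin, and no BMP or TGF-beta ligand is named as an added agent. Each reporter group is 1 clone grown from a single sorted cell, so the reporter, its insertion sites and the differences any single cell brings to its clone cannot be told apart. Reads of 75 bp were taken for parental and clone 37 but of 100 bp for clone 15, so in every comparison with clone 15 the clone and the read length cannot be told apart.

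BMPs and TGF-beta are secreted dimers that bring together type I and type II serine/threonine kinase receptors. Receptors for BMPs mostly phosphorylate SMAD1, SMAD5 and SMAD9, those for TGF-beta and activin mostly SMAD2 and SMAD3, and these SMADs enter the nucleus with SMAD4. The ID genes are direct BMP targets in many cell types, while SMAD6, SMAD7, SKIL and BAMBI are targets that damp the pathway. In the developing kidney, BMP7 keeps nephron progenitors alive and BMP4 helps to set where the ureter branches.

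The SMAD4 complex binds the short element GTCT, read AGAC on the other strand, and the palindrome GTCTAGAC joins both. The RefSeq promoter windows (GRCh38.p14, 250 bases before to 50 after a gene's start) held 13 windows for 9 of the 10 genes, and 1 gene, BMP7, had none. GTCT on either strand was present in all 13, as it was in 84.0% of 35116 windows of that length. The palindrome, which overlaps its own GTCT and AGAC, was present in the SMAD6 window and in none of the other 12, and in 0.202% of all windows. In SMAD6 its first base lies at position -12 from the start. GGCGCC, the core of a GC-rich SMAD1 and SMAD5 element, was found in the windows of SKIL, BAMBI and 1 of the 3 BMP4 windows, against 19.2% of all windows. The 250 bases before the start of SMAD6, ID1 and ID4 are shown because SMAD6 and ID4 had the largest rise and fall of the 10 genes in clone 15, and ID1, an ID gene that rose where ID4 fell, had more GTCT matches than either. All are on the plus strand, 5′ to 3′, at chr15:66701986-66702235 for SMAD6, chr20:31605039-31605288 for ID1 and chr6:19837120-19837369 for ID4. Capitals mark GTCT and AGAC.
SMAD6: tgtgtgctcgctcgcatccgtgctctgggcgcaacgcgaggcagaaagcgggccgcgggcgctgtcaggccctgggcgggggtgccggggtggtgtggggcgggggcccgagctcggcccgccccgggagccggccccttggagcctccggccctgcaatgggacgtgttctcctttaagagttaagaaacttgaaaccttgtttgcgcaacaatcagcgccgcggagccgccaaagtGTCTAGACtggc
ID1: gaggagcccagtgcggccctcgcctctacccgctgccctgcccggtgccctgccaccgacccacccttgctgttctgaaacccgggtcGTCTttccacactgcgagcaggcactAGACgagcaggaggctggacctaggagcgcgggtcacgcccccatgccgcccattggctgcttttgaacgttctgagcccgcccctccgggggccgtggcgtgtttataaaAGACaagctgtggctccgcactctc
ID4: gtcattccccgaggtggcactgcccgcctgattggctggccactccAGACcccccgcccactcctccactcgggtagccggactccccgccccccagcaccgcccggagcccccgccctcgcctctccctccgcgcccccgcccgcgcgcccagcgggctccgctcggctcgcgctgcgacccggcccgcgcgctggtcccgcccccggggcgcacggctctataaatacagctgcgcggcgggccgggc
A match is a run of letters and was not tested for binding. The ID1 window held 3 matches to GTCT or AGAC, the SMAD6 window 2 and the ID4 window 1, and the median over all windows was 2. The windows of ID3, which rose in clone 15, and ID2, which fell, held 2 each, and that of SKIL, not called there, held 3. BAMBI had 4, the SMAD7 windows 4, 5 and 2, and each BMP4 window 2.

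The libraries held between 10334090 and 38093340 counts assigned to genes, with clone 15 the deepest group, and 92.6% to 94.0% of the counts lay on the transcript strand. Each of the 10 genes had between 89 and 8640 counts in a library, and the fewest were those of BMP4 in clone 37. Levels are given in CPM, a gene's counts for every 1000000 counts assigned to genes in the library, and the tests also used normalisation factors from the trimmed mean of M values. Clone 15 libraries stood apart in most of the fibroblast markers. COL1A2, a collagen chain of fibroblasts, had 0 counts in all 6 parental and clone 37 libraries and 5.59, 12.2 and 56.8 CPM in clone 15 replicates 1, 2 and 3. The summed level of the 5 fibroblast markers COL1A1, COL1A2, DCN, LUM and THY1 was 54.6, 74.8 and 169 CPM in those replicates, 34.7 to 37.8 in parental and 18.9 to 20.9 in clone 37. The markers with 0 counts in every parental and clone 37 library were COL1A2 and THY1. LUM went the other way, from 2.14 ± 0.365 CPM in parental to 0.871 ± 0.534 in clone 15 (log2 -1.43, adjusted p = 0.00271), although within clone 15 it too was highest in replicate 3. The part of this signal in the clone 15 values was not tested, and results are therefore also given without clone 15 replicate 3. The kidney and neural markers (PAX2, LHX1, WT1, NEFL and NEFM) were detected in every group and summed to 714 to 916 CPM in parental, 3422 to 3554 in clone 15 and 246 to 247 in clone 37, mostly NEFL and NEFM, while the kidney members WT1 and LHX1 rose in both clones, by 1.11 and 0.96 on the log2 scale in clone 37 and by 0.49 and 0.35 in clone 15, and PAX2 was not called in either. LHX1 in clone 15 did not pass without clone 15 replicate 3 (adjusted p = 0.0578). The epithelial markers (CDH1, EPCAM, KRT8 and KRT18) summed to 62.3 to 73.0 CPM in parental, 84.1 to 98.3 in clone 15 and 62.1 to 64.1 in clone 37. Within that list CDH1 fell in both clones (log2 -1.68 in clone 15 and -1.93 in clone 37), EPCAM and KRT8 fell in clone 37 (log2 -1.61 and -0.34), and KRT18 rose in both (log2 0.77 and 0.27). The part of these markers in the results was not tested. The endothelial and blood markers summed to at most 0.325 CPM. The labels do not say that replicates were separate cultures, so the p-values measure only the spread between these libraries. Other libraries also stood apart from their group. Chi-square per degree of freedom over gene counts, which grows with depth, was 11.5 and 11.6 between parental replicate 2 and the others of its group against 1.99 between those, and that library had the smallest share of reads outside genes, 19.2% beside 26.4% and 28.8%. In clone 15 it was 9.97 and 8.19 for pairs with replicate 2 and 4.53 for the remaining pair, and in clone 37 it was 1.77 to 1.93. In bulk RNA, fewer cells making a transcript and less of it per cell cannot be told apart.

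**Figure D1:**
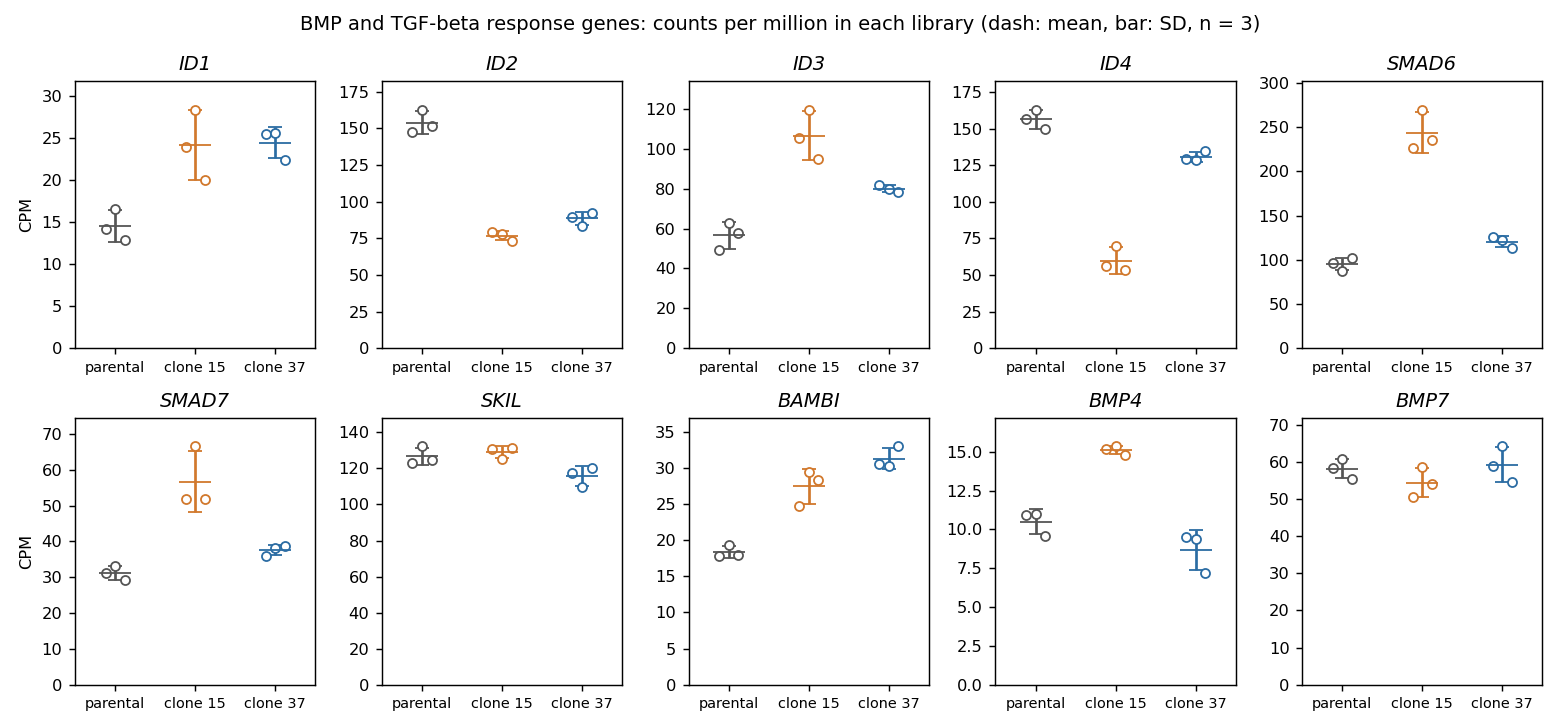
Level of each of the 10 genes in every library. The vertical axis is CPM from 0 on a linear scale with its own range in each panel; open points are libraries, dashes are means and bars are SD (n = 3 per group). ID2 and ID4 are lower in both clones, SMAD6 stands highest in clone 15, and the BMP7 groups overlap.

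The ID proteins are helix-loop-helix proteins without a DNA-binding domain, which pair with E proteins and keep them off DNA. The 4 ID genes split into opposite directions in both clones: ID1 and ID3 rose, and ID2 and ID4 fell. ID1 (ENSG00000125968, chr20:31605283-31606515) stood at 14.2, 16.6 and 12.9 CPM in parental replicates 1 to 3, at 24.0, 28.4 and 20.05 CPM in clone 15 and at 25.5, 25.5 and 22.3 CPM in clone 37. Every clone library was above every parental one, and the clones overlapped. The fitted log2 fold change over parental was 0.72 in clone 37 (SE 0.11, adjusted p = 2.98e-05). For clone 15 it came to 0.70 (SE 0.13, adjusted p = 1.27e-04), by edgeR's quasi-likelihood test with Benjamini-Hochberg adjustment over all genes tested, as for every adjusted p below. Between the clones ID1 differed by 0.01 (95% interval -0.19 to 0.22, adjusted p = 0.913), but with GC and length trends removed the value was 0.21 and passed (adjusted p = 0.0407). The genes around ID1 were higher as well: measured against the median of the 100 tested genes nearest on its chromosome, which was 0.32 in clone 37 and 0.40 in clone 15, the change was 0.40 in clone 37 (adjusted p = 0.0074) and 0.29 in clone 15 (adjusted p = 0.0786). The clone 15 value also fell to 0.40 once trends with GC content and length were removed, where it still passed.

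ID3 (ENSG00000117318, chr1:23557918-23559794) was measured at 49.4, 62.6 and 57.7 CPM in parental, 105, 119.7 and 95.1 CPM in clone 15 and 81.7, 79.9 and 78.4 CPM in clone 37. The 3 groups did not overlap, with clone 15 highest. ID3 was 1.84-fold higher in clone 15 than in parental (log2 0.88, SE 0.10, adjusted p = 2.21e-07) and 1.38-fold higher in clone 37 (log2 0.47, SE 0.08, adjusted p = 7.27e-05). The clones themselves differed by -0.41 on the log2 scale, clone 37 being lower (SE 0.07, adjusted p = 7.34e-06), or by -0.21 once GC and length trends were removed (adjusted p = 0.00119). Against its 100 neighbours the change in clone 37 was 0.18 (adjusted p = 0.0707) and no longer passed. With GC and length trends removed the clone 15 value was 0.58 and passed.

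ID2 (ENSG00000115738, chr2:8678845-8684453) fell in both clones. Its levels were 147, 163 and 151 CPM in parental, 79.0, 77.9 and 73.1 CPM in clone 15 and 89.7, 83.7 and 92.2 CPM in clone 37. No groups overlapped, and clone 15 lay lowest. ID2 was 2.05-fold lower in clone 15 (log2 -1.04, SE 0.08, adjusted p = 1.32e-10), while clone 37 was 1.77-fold below parental (log2 -0.82, SE 0.06, adjusted p = 9.70e-09). Its neighbours were lower too, by medians of -0.52 and -0.38 on the log2 scale, and against them the change was -0.52 in clone 15 and -0.44 in clone 37, both past the threshold. The gap between the clones, 0.21 (adjusted p = 0.00458), was 0.07 against the neighbours (adjusted p = 0.372) and 0.17 without clone 37 replicate 3 (adjusted p = 0.0620). ID2-AS1, which overlaps ID2 on the opposite strand, was also lower in both clones, with log2 changes of -0.94 in clone 15 (adjusted p = 9.91e-04) and -0.71 in clone 37 (adjusted p = 0.0101). Between 99.5% and 99.9% of ID2's own counts lay on the transcript strand.

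ID4 (ENSG00000172201, chr6:19837386-19840684) had the largest fall of the 10 genes in clone 15. It was read at 156, 163 and 149.7 CPM in parental, 56.4, 70.1 and 53.1 CPM in clone 15 and 129, 128 and 135 CPM in clone 37. The clone 15 libraries were all far below the others, and clone 37 lay just under parental with no overlap. ID4 was 2.67-fold lower in clone 15 than in parental (log2 -1.42, SE 0.09, adjusted p = 7.86e-12) and 1.22-fold lower in clone 37 (log2 -0.28, SE 0.06, adjusted p = 5.88e-04). Clone 37 was 2.19-fold above clone 15 (log2 1.13, SE 0.07, adjusted p = 6.19e-12), or by 0.75 on the log2 scale against the neighbours (adjusted p = 1.23e-08). In clone 37 the median neighbour of ID4 was higher, at 0.17, and against it the fall was -0.45 (adjusted p = 9.15e-06).

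These opposite changes altered which ID gene was most abundant. On a scale of CPM per kilobase of exon, which allows levels of different genes to be compared, the parental order was ID2 at 69.8 ± 3.63, ID4 at 66.7 ± 2.85, ID3 at 31.5 ± 3.73 and ID1 at 11.8 ± 1.55 (mean ± SD, n = 3). ID2 and ID4 were within their spread of each other. The length used was that of all annotated exons merged, 1797 bases for ID3, whose longest transcript has 1251 bases. On the shorter length ID3 would stand higher, so its place below ID4 in clone 37 and the shares below depend on this choice. In clone 15 the order was ID3 at 59.4 ± 6.88, ID2 at 34.8 ± 1.42, ID4 at 25.5 ± 3.84 and ID1 at 19.6 ± 3.38, and in clone 37 it was ID4 at 55.8 ± 1.45, ID3 at 44.5 ± 0.913, ID2 at 40.1 ± 1.98 and ID1 at 19.8 ± 1.48. ID2 and ID4 together made up 76.0% ± 1.33 of the summed ID level per kb in parental cells (SD, n = 3), and this share was 59.8% ± 1.57 for clone 37 and 43.4% ± 1.27 for clone 15. ID3 alone made up 17.5% ± 1.35 in parental, 27.8% ± 0.587 in clone 37 and 42.6% ± 0.358 in clone 15. Replicates of a group were close together in these shares, and clone 37 fell between the other two groups. The summed level per kb was 179.8 ± 10.4 CPM in parental cells, against 160.3 ± 2.13 for clone 37 and 139 ± 15.0 for clone 15.

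**Figure D2:**
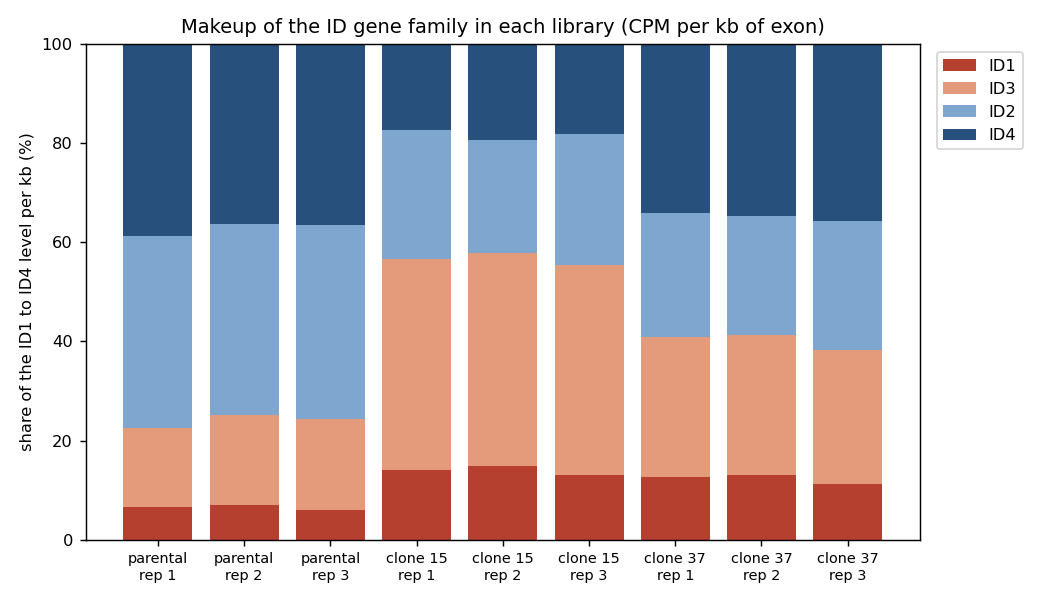
Makeup of the ID family in each library: stacked bars give the share of ID1, ID3, ID2 and ID4, in percent, of their summed CPM per kb of exon (vertical axis from 0 to 100), for 3 libraries of each group along the horizontal axis. The blue blocks, ID2 and ID4, take 76.0% in parental, 59.8% in clone 37 and 43.4% in clone 15 on average.

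Of the 4 inhibitors among the 10 genes, SMAD6 had the largest change in clone 15, and BAMBI had the largest in clone 37. SMAD6 is an inhibitory SMAD that acts mainly on BMP signalling by competing at the receptor and with SMAD4. SMAD6 (ENSG00000137834, chr15:66702228-66782848) stood at 96.8, 87.3 and 102 CPM in parental, 227, 269.8 and 235 CPM in clone 15 and 126, 122 and 113 CPM in clone 37. No groups overlapped, and the lowest clone 15 library was well above the highest of clone 37. The level in clone 15 was 2.51-fold that in parental (log2 1.33, SE 0.08, adjusted p = 1.97e-12), and in clone 37 it was 1.24-fold (log2 0.31, SE 0.06, adjusted p = 4.13e-04). Clone 37 was 2.02-fold below clone 15 (log2 -1.01, SE 0.06, adjusted p = 6.26e-14). The 100 tested genes around SMAD6 had a median change of 0.13 in clone 15 and 0.10 in clone 37. Per kb, SMAD6 was the sixth of the 10 genes in parental, at 11.1 ± 0.847, within the spread of ID1 and BMP7, and the third in clone 15, at 28.5 ± 2.66, within the spread of ID4. These ranks depend on the length used, 8563 bases of merged exon, where the longest SMAD6 transcript has 5198.

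AC013564.1, an annotated gene inside SMAD6 on the same strand (chr15:66740445-66741151), was also higher in clone 15 but not called in clone 37. Its parental counts were 20, 18 and 40, its clone 15 counts 312, 193 and 124, and its clone 37 counts 30, 19 and 14. Clone 15 was far above the other groups, which overlapped. It was higher in clone 15 by 1.85 on the log2 scale (SE 0.23, adjusted p = 2.08e-07), and in clone 37 its change was -0.16 (adjusted p = 0.731). Reads from the overlap of both genes on one strand cannot be assigned with certainty. SMAD3, the TGF-beta receptor SMAD that lies 280914 bases away, changed by -0.02 in clone 15 and -0.08 in clone 37 and was called in no comparison.

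SMAD7, the other inhibitory SMAD, damps both branches and brings ubiquitin ligases to the receptors. SMAD7 (ENSG00000101665, chr18:48919853-48952052) was at 31.3, 33.0 and 29.3 CPM in parental, 51.8, 66.5 and 51.8 CPM in clone 15 and 35.9, 38.2 and 38.6 CPM in clone 37. As for SMAD6, clone 15 lay above clone 37 and clone 37 above parental, without overlap. SMAD7 rose 1.77-fold in clone 15 (log2 0.83, SE 0.10, adjusted p = 2.87e-07). In clone 37 the change of 0.24 (SE 0.08, adjusted p = 0.0155) was not held by every setting: the adjusted p was 0.0710 with DESeq2, 0.0502 without clone 37 replicate 2, 0.134 without clone 37 replicate 3 and 0.176 without parental replicate 3, where the change was 0.15. Against its neighbours, lower by a median of -0.16, it was 0.40 (adjusted p = 5.84e-04). Between the clones the log2 change was -0.59 (SE 0.08, adjusted p = 1.43e-06), and against the neighbours, which were also lower in clone 37, it was -0.25 (adjusted p = 0.0139).

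BAMBI is a pseudoreceptor that resembles a type I receptor but lacks the kinase domain. BAMBI (ENSG00000095739, chr10:28677342-28682939) was measured at 17.9, 19.3 and 17.99 CPM in parental, 24.7, 29.4 and 28.3 CPM in clone 15 and 30.5, 30.3 and 32.9 CPM in clone 37. Unlike the inhibitory SMADs, it was highest in clone 37. It rose 1.67-fold in clone 37 (log2 0.74, SE 0.09, adjusted p = 1.74e-06) and 1.45-fold in clone 15 (log2 0.54, SE 0.11, adjusted p = 1.69e-04). The gap between the clones of 0.20 (SE 0.08, adjusted p = 0.0402) lost the call under 10 of the other settings, among them DESeq2 (adjusted p = 0.0843) and leaving out clone 15 replicate 3 (adjusted p = 0.0552), and it was 0.04 against the neighbouring genes. It was 0.12 without clone 15 replicate 1, 0.23 without clone 37 replicate 1 and 0.15 without clone 37 replicate 3, and passed in none of these fits.

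SKIL encodes SnoN, a repressor that binds SMAD2, SMAD3 and SMAD4 and is itself induced by TGF-beta. SKIL (ENSG00000136603, chr3:170357678-170396835) was at 123, 132 and 125 CPM in parental, 131, 125 and 131 CPM in clone 15 and 117, 109 and 120.4 CPM in clone 37. The parental and clone 15 libraries overlapped, and clone 37 lay slightly below both. Clone 37 differed from parental by -0.15 (SE 0.06, adjusted p = 0.0416) and from clone 15 by -0.15 (SE 0.06, adjusted p = 0.0257). The first call was lost with DESeq2 (adjusted p = 0.0780) and when replicate 1 or 2 of clone 37 or replicate 2 of parental was left out (adjusted p = 0.0960, 0.229 and 0.0587). The second was lost without clone 37 replicate 1, clone 37 replicate 2 or clone 15 replicate 1 (adjusted p = 0.0781, 0.220 and 0.0542), and was -0.55 with GC and length trends removed. Both directions turned when the neighbouring genes, lower in clone 37 by medians of -0.29 and -0.34, were taken as the reference, with values of 0.13 (adjusted p = 0.0871) and 0.19 (adjusted p = 0.00836). In clone 15 against parental the 95% interval ran from -0.16 to 0.15, and once GC and length trends were removed the value was 0.45 (adjusted p = 6.46e-05). SKIL has the lowest GC content of the 10 genes, 33.4% of its longest transcript against 47.0% to 58.9% in the others.

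BMP4 and BMP7 are the ligands among the 10 genes. BMP4 (ENSG00000125378, chr14:53949736-53958761) was the least abundant gene per kb in all 3 groups, at 10.92, 11.005 and 9.57 CPM in parental, 15.2, 15.3 and 14.8 CPM in clone 15 and 9.50, 9.39 and 7.21 CPM in clone 37. All clone 15 libraries were above all others, and all clone 37 libraries were below parental, the nearest by a small margin. BMP4 rose 1.41-fold in clone 15 (log2 0.50, SE 0.13, adjusted p = 0.00203), and clone 37 was 1.74-fold below clone 15 (log2 -0.80, SE 0.12, adjusted p = 2.10e-06). With GC and length trends removed the clone 15 value was 0.31 (adjusted p = 0.0367), and against the neighbours the gap between the clones was -0.42 (adjusted p = 0.00528). The change in clone 37 from parental was -0.30 (SE 0.14, adjusted p = 0.0789). It passed without parental replicate 3 at -0.41 (adjusted p = 0.0307) and after thinning to equal depth at -0.37 (adjusted p = 0.0457), and it was 0.085 against its neighbours (adjusted p = 0.660), whose median was -0.39.

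BMP7 (ENSG00000101144, chr20:57168748-57266629) was read at 58.4, 60.7 and 55.4 CPM in parental, 50.6, 58.5 and 53.9 CPM in clone 15 and 58.9, 64.2 and 54.6 CPM in clone 37. All 3 groups overlapped. The 95% interval of the log2 change was -0.14 to 0.14 in clone 37 and -0.30 to 0.04 in clone 15 against parental, and -0.01 to 0.27 between the clones, with adjusted p of 0.978, 0.215 and 0.117. These intervals hold no change as large as 1.5-fold. In clone 15 the value passed against its neighbours (-0.34, adjusted p = 0.00270) and with GC and length trends removed (-0.25, adjusted p = 0.0124), and the latter setting also gave 0.26 between the clones (adjusted p = 3.30e-04), where leaving out clone 15 replicate 2 gave 0.16 (adjusted p = 0.0288).

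**Figure D3:**
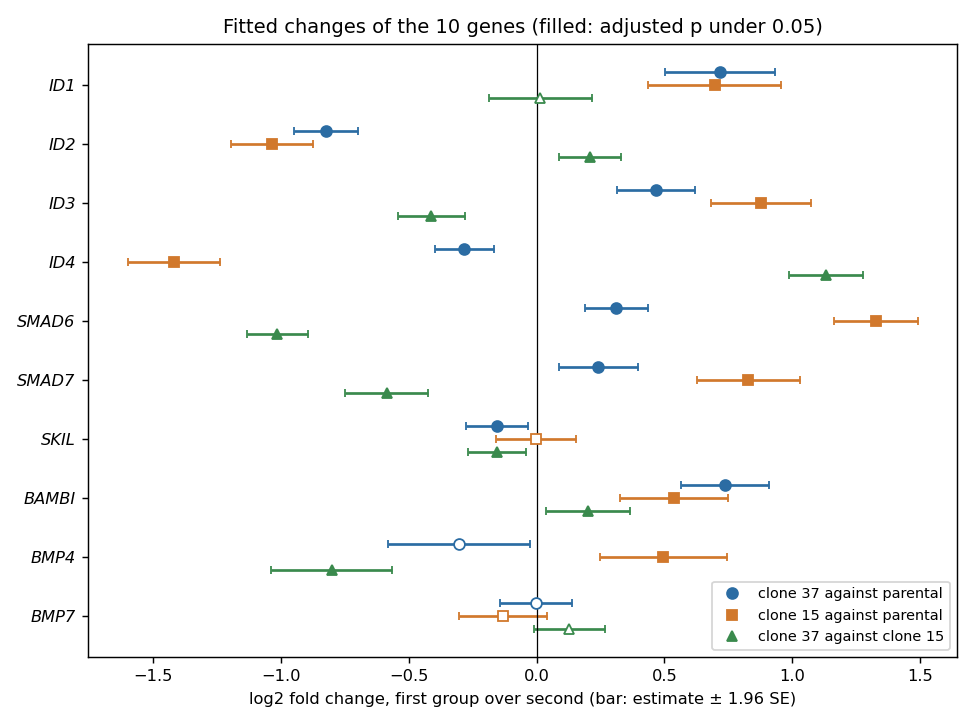
Fitted log2 fold changes of the 10 genes (horizontal axis, first group over second) in the 3 comparisons, with bars for the 95% interval; filled symbols passed an adjusted p of 0.05. SMAD6 at 1.33 and ID4 at -1.42 in clone 15 against parental are the farthest points, and the 3 BMP7 symbols are open.

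Counted together, 8 of the 10 genes passed in clone 37 against parental, 5 higher and 3 lower, where 54% of 16501 genes tested passed, 26.7% higher and 27.3% lower. In clone 15 against parental 8 passed, 6 higher and 2 lower, against 51.4% of 17703 genes, 25.1% higher and 26.2% lower. Between the clones 8 passed, 3 higher and 5 lower in clone 37, against 57.7% of 17712 genes, 28.7% higher and 29% lower. The comparisons share libraries, and the share called is high in all of them, so these counts do not set the genes apart. Changes past the threshold and of at least 1.5-fold were found for 3, 6 and 4 of the genes, where 21.8%, 24% and 26.1% of all genes tested had them. The median absolute log2 change of the 10 genes was 0.31 in clone 37 and 0.76 in clone 15 against parental, beside 0.32 and 0.36 over all genes tested. Between the clones it was 0.31 beside 0.35. Groups did not overlap for 9, 8 and 8 of the genes, beside 61.7%, 59.5% and 63.5% of all.

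Leaving out clone 15 replicate 3, the library with the most fibroblast marker signal, the same number of genes, 6 higher and 2 lower, passed against parental. SMAD6 was then 1.37 above parental on the log2 scale, ID3 0.97, SMAD7 0.90, ID1 0.83, BAMBI 0.53 and BMP4 0.53, while ID2 was at -0.99 and ID4 at -1.33. Each of these was close to its value with all 3 libraries. Without parental replicate 2 the counts were 5 higher and 2 lower in clone 37, SKIL having lost its call, and 6 and 2 in clone 15. Without clone 15 replicate 2 they were 6 and 2 against parental and 4 higher and 5 lower between the clones, where BMP7 gained a call. Within clone 15, COL1A2 was highest in replicate 3, whereas ID1, ID2, ID3, ID4 and BMP4 were lowest there. Replicate 2 held the highest level of ID1, ID3, ID4, SMAD6, SMAD7, BAMBI, BMP4 and BMP7, and replicate 1 that of ID2. SKIL was highest in replicate 3 by a small margin (130.9, 125.3 and 131.4 CPM).

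**Figure D4:**
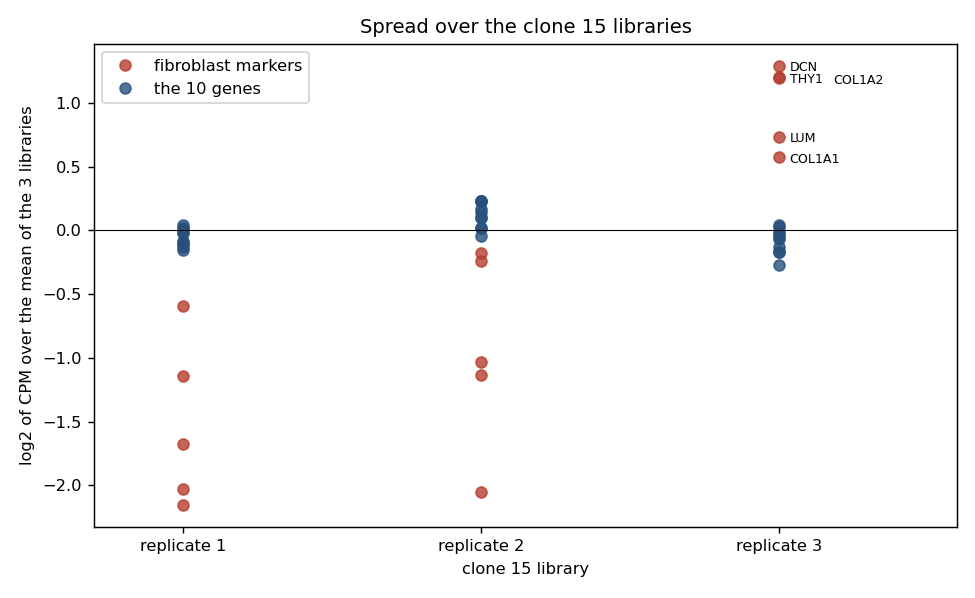
Spread over the 3 clone 15 libraries. Points give the log2 of CPM in a library over the mean of the 3 libraries (vertical axis) for the 5 fibroblast markers in red and the 10 genes in blue. The markers climb in replicate 3, where COL1A2 reached 56.8 CPM, and the 10 genes stay near 0.

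The rest of the pathway was read through lists of other genes, whose counts are to be read against the shares of all genes tested: 26.7% rose and 27.3% fell in clone 37, 25.1% and 26.2% in clone 15, and 28.7% and 29% were higher and lower between the clones. Of 10 tested members of the other BMP and GDF ligands, 4 rose and 3 fell in clone 37, with a median log2 change of 0.29, and 2 rose and 4 fell in clone 15, with a median of -0.33, beside 0.02 and 0.02 over all genes tested. BMP6, of the same subfamily as BMP7, went from 14.9 ± 0.353 CPM in parental to 28.9 ± 2.47 in clone 37 (SD, n = 3), against 13.7 ± 2.47 in clone 15, a log2 rise of 0.92 in clone 37 (adjusted p = 3.19e-07). BMP3, a BMP that opposes the others in bone, rose by 1.55 in clone 37 from a low 0.921 ± 0.0821 CPM in parental. GDF7, a BMP-type factor of the nervous system, fell from 40.2 ± 3.99 CPM in parental to 15.4 ± 0.292 in clone 15 (log2 -1.41, adjusted p = 1.53e-11), and GDF10 fell by 1.67 on the log2 scale from 1.58 ± 0.409 CPM. Both also fell in clone 37, GDF7 by 0.71 and GDF10 by 2.56. No clone 37 library held more than 4 counts of GDF10. It passed the filter on low counts through the parental libraries, so the size of its fall in clone 37 is not settled. The rises in clone 15 were 1 without clone 15 replicate 3, where AMH lost its call (adjusted p = 0.0690), and also 1 without clone 15 replicate 2 or without parental replicate 2. Between the clones 6 of 9 tested ligands were higher in clone 37 and 0 lower, where 28.7% and 29% of all genes tested were, including BMP6 (log2 1.07) and GDF6 (log2 1.22).

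Of 8 tested TGF-beta, activin and nodal ligands, 1 rose and 2 fell in clone 37, and 1 rose and 4 fell in clone 15, with medians of -0.26 and -0.79. Both genes named for clone 37 were inhibin beta chains, which build activins. INHBE stood at 5.64, 5.97 and 6.05 CPM in parental, 1.92, 2.15 and 1.88 CPM in clone 15 and 0.365, 0.387 and 0.324 CPM in clone 37. It was a graded fall without overlap, by 1.60 on the log2 scale in clone 15 and by 4.03 in clone 37. INHBA was at 3.24, 3.67 and 1.15 CPM in parental and at most 0.322 CPM in any clone library, and it too fell in both clones (log2 -3.94 and -4.40). Its counts were 7, 1 and 6 in clone 15 and 1, 3 and 0 in clone 37. INHBA passed the filter on low counts through the parental libraries, so the size of these falls is not settled. INHBB was higher in clone 37 than in clone 15 by 0.77 (adjusted p = 0.0261).

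Receptors and co-receptors were next. Of 15 tested in clone 37, 3 rose and 5 fell (median -0.20), and of 16 in clone 15, 2 rose and 5 fell (median -0.14). The activin type II receptors fell in both clones: ACVR2A went from 37.4 ± 3.04 CPM in parental to 24.9 ± 0.820 in clone 37 and 22.7 ± 0.728 in clone 15, and ACVR2B from 326 ± 11.8 CPM to 209 ± 4.26 in clone 37 (log2 -0.67, adjusted p = 4.31e-08). TGFBR3, the betaglycan co-receptor, fell by 0.51 on the log2 scale in clone 15. ENG, with a mean too low for the naming rule, went the other way, to 1.37, 1.42 and 1.66 CPM in clone 15. It stood at 0.278, 0.144 and 0.306 CPM in parental, from 3, 2 and 4 counts, so the size of that rise is not settled. Between the clones 4 of 16 were higher and 4 lower in clone 37, among them ACVR1C at 0.42 and ACVRL1 at -0.72, which passed with all libraries but not without clone 15 replicate 3 (adjusted p = 0.0971 and 0.0544). TGFBR3 lost its call there too (adjusted p = 0.0338 and then 0.127), and the counts were 2 higher and 3 lower.

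The receptor-regulated SMADs and SMAD4 carry the signal to the nucleus. Of 6 genes, 2 rose and 1 fell in clone 37 (median 0.01), and 0 rose and 2 fell in clone 15 (median -0.10). SMAD1 was at 29.1 ± 1.13 CPM in parental and 41.0 ± 1.66 in clone 37 (log2 0.47, adjusted p = 5.34e-05). SMAD9 fell in both clones, by 0.24 in clone 37 and by 0.44 in clone 15, and SMAD5 fell by 0.40 in clone 15. Between the clones 3 of the 6 were higher in clone 37 and 0 lower, with SMAD5 at 0.57 and SMAD1 at 0.30.

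Secreted antagonists and latency proteins hold ligands outside the cell. In clone 37, 2 of 13 rose and 8 fell (median -0.29), where 26.7% and 27.3% of all genes tested rose and fell. In clone 15, 1 of 15 rose and 7 fell (median -0.13), beside 25.1% and 26.2% of all, and without clone 15 replicate 3 the counts were 2 and 6. Between the clones 4 of 14 were higher and 5 lower in clone 37, or 5 and 7 without that library. NOG, the noggin that binds BMPs outside the cell, was at 17.5, 16.7 and 14.0 CPM in parental, 7.43, 8.08 and 6.81 CPM in clone 15 and 12.1, 14.0 and 13.9 CPM in clone 37. It fell in clone 15 by 1.14 on the log2 scale (adjusted p = 1.93e-07), and in clone 37 it was 0.85 above clone 15. SOSTDC1, another BMP antagonist, fell from 3.44 ± 0.687 CPM in parental to under 1 CPM on average in both clones (log2 -2.42 in clone 37 and -2.16 in clone 15). LTBP2, of the latent TGF-beta binding proteins, fell by 1.63 in clone 37. GREM1, an antagonist made by fibroblasts and chosen after its values were seen, had clone 15 levels of 1.63, 1.22 and 8.95 CPM, highest in replicate 3 as COL1A2 was. It was not called with all libraries (log2 3.38 in clone 15, adjusted p = 0.141; between the clones adjusted p = 0.0770) and was called without replicate 3 (log2 2.02, adjusted p = 0.00615; between the clones adjusted p = 6.84e-07). Outside clone 15 GREM1 was barely detected: no clone 37 library held more than 1 count of it, and no parental library more than 7. It passed the filter on low counts through clone 15, so the size of these differences is not settled. The part of the fibroblast signal in GREM1 was not tested.

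Of 15 intracellular regulators other than SMAD6, SMAD7 and SKIL, 9 rose and 4 fell in clone 37, with a median of 0.19, where 54% of all genes tested were called. In clone 15, where 51.4% of all were called, 2 rose and 4 fell, with a median of -0.03. Between the clones 9 were higher and 4 lower in clone 37, beside 57.7% of all genes called. PPM1A, a SMAD phosphatase, fell by 0.56 and ZEB2, a SMAD-binding repressor, by 0.65 on the log2 scale in clone 37. In clone 15 the largest fall was that of TRIM33, a SMAD4 ubiquitin ligase, from 195 ± 4.08 to 127 ± 5.44 CPM (log2 -0.65, adjusted p = 1.74e-07). TGIF1, a corepressor, and SMURF1, a ubiquitin ligase that acts with SMAD6 and SMAD7, were higher in clone 37 than in clone 15 by 0.45 and 0.41. Without clone 15 replicate 3 the counts were 2 higher and 2 lower in clone 15 against parental, and 8 higher and 2 lower between the clones.

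The other targets were mixed in direction, as the ID genes were. Of 7 other BMP targets, 2 rose and 3 fell in clone 37 and 3 rose and 2 fell in clone 15. MSX2, a homeobox target, stood at 27.4 ± 3.86 CPM in parental and rose by 0.34 on the log2 scale in clone 37, to 34.6, 36.5 and 35.5 CPM. In clone 15 it was higher still, at 38.1, 40.9 and 41.3 CPM. DLX2 fell in both clones, from 49.8 ± 3.29 CPM in parental to 36.5 ± 1.04 in clone 37 and 30.1 ± 3.56 in clone 15, and DLX5 fell by 0.73 in clone 15. Between the clones 3 were higher and 3 lower in clone 37, with ATOH8 at 0.59 and TBX3 at -0.54. Without clone 15 replicate 3 the counts were 2 and 2, and ATOH8 no longer passed (0.52, adjusted p = 0.0516).

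Of the other TGF-beta targets, 2 of 12 rose and 5 fell in clone 37 (median -0.07), and 5 of 13 rose and 3 fell in clone 15 (median 0.45). FN1, the matrix protein fibronectin, fell in clone 37 from 208 ± 9.29 CPM in parental to 47.9 ± 3.52 (log2 -2.14, adjusted p = 9.76e-14). BHLHE40 fell in both clones, from 132, 125 and 96.1 CPM in parental to 24.3, 26.5 and 25.6 CPM in clone 15 and 33.7, 36.2 and 31.3 CPM in clone 37 (log2 -2.25 and -1.83). CCN2, a matricellular protein, rose in clone 15 by 1.59 from 2.48 ± 0.628 CPM, to 6.46, 7.67 and 9.11 CPM in replicates 1 to 3. In clone 37 it stood at 5.30, 4.55 and 6.56 CPM, above every parental library. Without parental replicate 2 its log2 change in clone 37 was 1.35 (adjusted p = 6.50e-08). CDKN2B, a cell cycle inhibitor that TGF-beta induces, was at 29.7 ± 1.35 CPM in clone 15 and 7.98 ± 0.397 in clone 37, a log2 difference of -1.89 (adjusted p = 7.10e-15). Several genes of this list are also fibroblast genes and followed replicate 3: FN1 was at 112, 114 and 205 CPM, COL1A1 at 48.3, 61.4 and 108 CPM and TGFBI at 1.496, 1.95 and 10.2 CPM in clone 15 replicates 1 to 3. Without replicate 3, 6 of 13 rose and 4 fell in clone 15, with FN1 at -0.89 in place of -0.56, COL1A1 at 0.66 in place of 1.04 and TGFBI at 4.31 in place of 5.63. All 3 passed the test in that setting (adjusted p = 3.27e-08, 2.57e-05 and 4.52e-06) and did not with all libraries (adjusted p = 0.186, 0.0799 and 0.0665). TGFBI, among the 6 counted as risen, held 1, 2 and 0 counts in the parental libraries. It passed the filter on low counts through clone 15, so the size of its rise is not settled. The part of the fibroblast signal in these values was not tested. COL1A1 between the clones passed with all libraries at -1.88 (adjusted p = 0.0193) and without replicate 3 at -1.50.

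The E proteins, the partners that ID proteins bind, also split. TCF3 rose in clone 37, from 127 ± 2.63 to 185 ± 4.84 CPM (log2 0.52, adjusted p = 4.13e-07), and TCF12 fell by 0.43. In clone 15 TCF12 fell by 0.62 and TCF4 rose by 0.25 (adjusted p = 0.00868). Thus 1 of 3 rose and 1 fell in each clone against parental. Between the clones 2 were higher and 1 lower in clone 37, with TCF3 at 0.36 and TCF4 at -0.34, and without clone 15 replicate 3 the counts were 1 and 1.

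**Figure D5:**
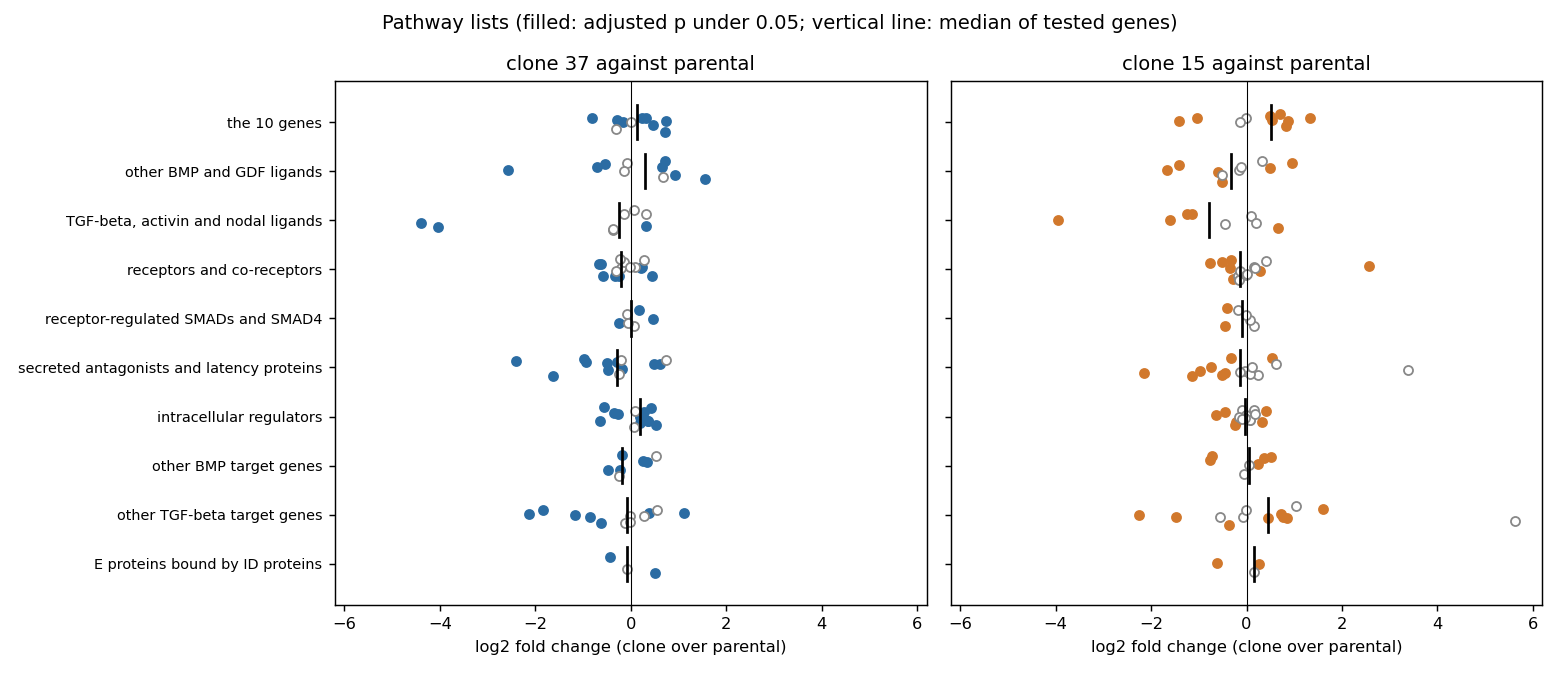
Fitted log2 fold change against parental (horizontal axis) of every tested gene of the 10 genes and of 9 other pathway lists (vertical axis), for clone 37 on the left and clone 15 on the right; each point is a gene, and filled points passed an adjusted p of 0.05 and short vertical lines are medians. Of the 13 secreted antagonists and latency proteins tested in clone 37, 8 fell, where 27.3% of all genes tested fell, and ligands and targets spread to both sides.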

How the data were processed

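RNA from 9 libraries (500 ng input, rRNA depletion, strand-specific kit, 13 amplification cycles) was sequenced in pairs, per the labels' protocols. The deposited values are raw counts per gene; FastQC 0.11.9, STAR 2.7.10a and hg38 are named in the submitters' processing notes, and the annotation release is not given in the sources used here. The deposited counts of the transcript strand were used, and counts of reads assigned to no gene were left out of library totals. Of 60683 identifiers, 58496 matched GENCODE 29, which supplied positions and exon lengths.

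The 10 genes and the pathway lists were chosen with earlier results of these data known. Each comparison of 2 groups was fitted over all genes left by edgeR's default filter (R 4.3.3, edgeR 4.0.16, TMM factors 0.937 to 1.03, glmQLFit and glmQLFTest, adjusted p under 0.05); the script was tested on simulated data. In each list the 2 called genes with the largest fitted change and a mean of at least 1 CPM were named. Alternatives were RLE factors, DESeq2 1.42.0, no filter, at least 1 CPM in 3 libraries, counts of both strands, all 9 libraries in one fit, a replicate block, thinning, GC and length trends (also with the block), and leaving out each library. A reference of 100 neighbouring tested genes was added after the data were seen. Genes most like each of the 10 were ranked by Pearson's r of log2(CPM + 0.5) over 9 libraries, among protein-coding genes with a mean of at least 5 CPM. Figures used Python 3.11.15 and matplotlib 3.10.9. Reporter transcripts were not analysed here. Chi-square values per degree of freedom between replicates of a group, 1.77 to 11.6, were all above sampling noise, so none was treated as a copy. List counts without parental replicate 2 and without clone 15 replicates 2 and 3 were computed after the data were seen.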

Additional observations from a re-analysis of the deposited data

Results flagged for a closer look

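For 8 of the 10 genes the change from parental differed between the clones, by the edgeR test of clone 37 against clone 15 (Benjamini-Hochberg adjusted p under 0.05), where 57.7% of 17712 genes tested passed. Both changes share the parental libraries, so the difference is that between the clones, as a log2 fold change of clone 37 over clone 15. It was 1.13 for ID4, which was lower than parental in both clones and far lower in clone 15. It was -1.01 for SMAD6, -0.59 for SMAD7 and -0.41 for ID3, the genes that were higher than parental in both clones and highest in clone 15. It was -0.80 for BMP4, which was above parental in clone 15 and not called in clone 37. The smaller differences were 0.21 for ID2, 0.20 for BAMBI and -0.15 for SKIL, and each of these 3 lost its call under at least 1 other setting. Clone and read length cannot be told apart in any of them.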

How the results depend on the processing

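Of 510 values of the 10 genes under other settings, 447 kept direction and side of the threshold, 33 lost the call, 12 gained it and 18 changed sign. The number of the 10 genes called was 8 in each comparison and ranged from 6 to 9 in clone 37 against parental, 8 to 10 in clone 15 against parental and 6 to 10 between the clones (leaving out 1 library, 6 to 8, 8, and 6 to 9). Against 100 neighbouring genes SKIL was 0.13 in clone 37 and 0.19 between the clones, and BMP4 was 0.085 in clone 37. SKIL in clone 15 was 0.0074 with the 1 CPM filter, 0.00056 with all 9 libraries in one fit, 0.45 with GC and length trends removed, 0.45 with these and the replicate block, and -0.051 to 0.054 where 1 library was left out. BMP7 in clone 37 was 0.00021 with the replicate block and GC and length trends removed, and -0.082 to 0.040 where 1 library was left out. ID1 between the clones was -0.00089 with the 1 CPM filter and -0.10 to 0.11 where 1 library was left out; it was called at 0.21 with GC and length trends removed (adjusted p = 0.0407) and at 0.23 with these and the replicate block (adjusted p = 0.0130). Same-numbered replicates did not deviate together (correlations of -0.205 to 0.0445 over 9 pairs, 3 of 18 best with their own number). These correlations, taken over deviations from means of 3 libraries, cannot exclude a weak shared batch. With the replicate block 7, 8 and 8 of the 10 genes were called, and the call lost was SKIL in clone 37 (-0.15, adjusted p = 0.0864, edgeR). The cause of these shifts was not tested. With 3 libraries a group, values near 0 have no settled direction: BMP7 changed sign in clone 37 and kept it in clone 15 and between the clones under every setting run.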

Other observations

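The genes whose levels followed each of the 10 genes most closely over the 9 libraries, among 11305 protein-coding genes compared, are given as a description, since the libraries of a group share a clone, depth and read length. ID1 was matched best by HEY1 (r = 0.991), a Notch and BMP target of the lists above, which stood at 169 CPM in parental, 203 in clone 15 and 205 in clone 37. ID2 was matched best by SEPTIN2 (r = 0.998), ID3 by BANF1 (r = 0.990), SMAD6 by RNASEH2C (r = 0.997) and SMAD7 by SCAND1 (r = 0.993). The genes closest to ID4 were LINGO1 (r = 0.996) and POU3F3 (r = 0.995), and POU3F3 fell from 57.7 CPM in parental to 23.9 in clone 15 while it was 51.8 in clone 37. BAMBI was closest to GET3 (r = 0.990), BMP4 to SPTB (r = 0.990) and SKIL to SNAP29 (r = 0.968). Such likeness was common: 265 genes had r over 0.9 with ID1, 751 with ID2, 750 with SMAD6 and 48 with SKIL, against 2 with BMP7, whose groups overlapped.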
